A study of Mus musculus with 4 samples.

Results

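The 8 genes described here lie in and around the Th2 cytokine locus of the mouse: Il4, Il13 and Il5, with Kif3a, Rad50, Irf1, Slc22a5 and Pdlim4 around and between them. They were chosen by name and by the RefSeq accession of their probes, and are 8 of the 18539 genes that could be named on the array. They were measured by 11 of 41174 probes. Kif3a, Irf1 and Slc22a5 had 2 probes each, and the others had 1. All 11 probes were well above background on all 4 arrays.

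CD4 T cells were taken from the spleen of female C57BL/6J mice and made into Th2 cells, the helper cells of allergic inflammation. All 4 samples had been activated for 2 days with immobilized antibody to TCR-β (3 µg/ml) and to CD28 (1 µg/ml), and then cultured for 3 more days, with 2.5 ng/ml of IL-2 and 10 ng/ml of added IL-4 throughout, so IL-4 was added to the controls too. SH-2251, a small compound studied for its effect on IL-5, was present in the culture of 2 samples and absent from that of the 2 controls. Per the labels its dose was 1 µM in the first culture and 1 mM in the second, whereas the methods of the study give a lower dose; which dose these samples received is not settled here. One control and one SH-2251-treated sample were left resting, and the other two were restimulated for 4 h on immobilized antibody to TCR-β. Each condition was measured on 1 array, so the differences below have no replicate check and no test, and the number of arrays limits their precision. The labels do not say how many mice or cultures each sample held, and they name splenic CD4 T cells as the start where the methods name naive ones.

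In Th2 cells, Il4, Il13 and Il5 are opened together by GATA3, and the last part of Rad50, a gene for DNA repair that stands between Il13 and Il5, holds a control region for all of them. Signals from the T cell receptor then switch the cytokine genes on through NFAT and AP-1, while genes such as Kif3a and Rad50 are used by most cells whether stimulated or not. Irf1, which lies beyond Il5, encodes a transcription factor of the interferon response.

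The sequences before the start of the 3 cytokine genes are shown because the cytokines lie close together, with Rad50 between Il13 and Il5, and differed in their values with SH-2251. Each is the 250 bases upstream of the start site in RefSeq for GRCm38.p6, written 5′ to 3′ on the strand of the gene. For Il4 (chr11:53618666-53618915, minus strand) the outer of 2 start sites was used, Il13 lies at chr11:53634703-53634952 (minus strand) and Il5 at chr11:53720544-53720793 (plus strand). Capitals mark GATA and GGAAA, the core letters bound by GATA3 and NFAT, on either strand.
Il4: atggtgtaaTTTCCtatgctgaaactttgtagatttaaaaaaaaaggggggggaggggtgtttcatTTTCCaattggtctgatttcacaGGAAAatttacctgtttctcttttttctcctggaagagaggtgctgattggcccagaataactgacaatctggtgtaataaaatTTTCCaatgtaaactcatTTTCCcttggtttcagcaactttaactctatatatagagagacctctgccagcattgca
Il13: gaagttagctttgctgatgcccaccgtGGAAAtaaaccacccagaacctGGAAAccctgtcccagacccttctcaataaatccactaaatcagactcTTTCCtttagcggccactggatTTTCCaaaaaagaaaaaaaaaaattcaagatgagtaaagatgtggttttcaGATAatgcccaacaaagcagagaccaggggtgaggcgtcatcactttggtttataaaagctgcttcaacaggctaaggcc
Il5: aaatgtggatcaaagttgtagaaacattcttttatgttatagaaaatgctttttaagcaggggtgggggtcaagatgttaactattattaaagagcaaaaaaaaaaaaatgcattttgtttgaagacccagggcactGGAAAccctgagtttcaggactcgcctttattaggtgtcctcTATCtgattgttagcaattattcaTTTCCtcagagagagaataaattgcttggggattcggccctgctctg

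A start region was found in the reference for 7 of the 8 genes, Rad50 being the other. GGAAA was found 5 times for Il4, 4 times for Il13 and 2 times for Il5, and 55.6% of all 32851 start regions of this length hold it at least once. GATA was found once each for Il13 and Il5, at 80 to 77 and 71 to 68 bases before the start, and not for Il4; 53.6% of all regions hold it. AATC, the core letters bound by GFI1, was found 4 times for Il4, 3 times for Il13 and 2 times for Il5, against 69.0% of regions with at least 1 match, and one of the Il5 matches, at 66 to 63 bases, lay next to its GATA match. TGANTCA, the AP-1 motif, was found in none of these and in 6.75% of all regions. TATAAA was found only for Il13, where its matches on both strands overlap, and in 12.4% of all regions. The regions held 37.6% G and C for Il4 and Il5 and 43.2% for Il13, below the median of 52.4%. These are matches of letters in short windows, and no binding was measured on the arrays.

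Levels are given as the log2 signal of the probe minus the 75th percentile of its array, which puts the arrays on 1 scale but does not allow one gene to be set against another. A difference of 1 is 2-fold. The percentile lay between 499 and 614 intensity units, the share of probes well above background was 56.0% to 56.7%, and no spot of a sample probe was saturated. The technical SD beside a difference comes from the error estimate of the scanner software and covers error within the arrays only, not that between cultures. Markers of the labelled cells were present, with 6 of 6 T cell markers and 6 of 6 Th2 markers well above background on all arrays. The Th2 markers include Il4, itself among the genes described here. All 3 Th1 markers were well above background on all arrays too, so these counts do not set Th2 cells apart.

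**Figure D1:**
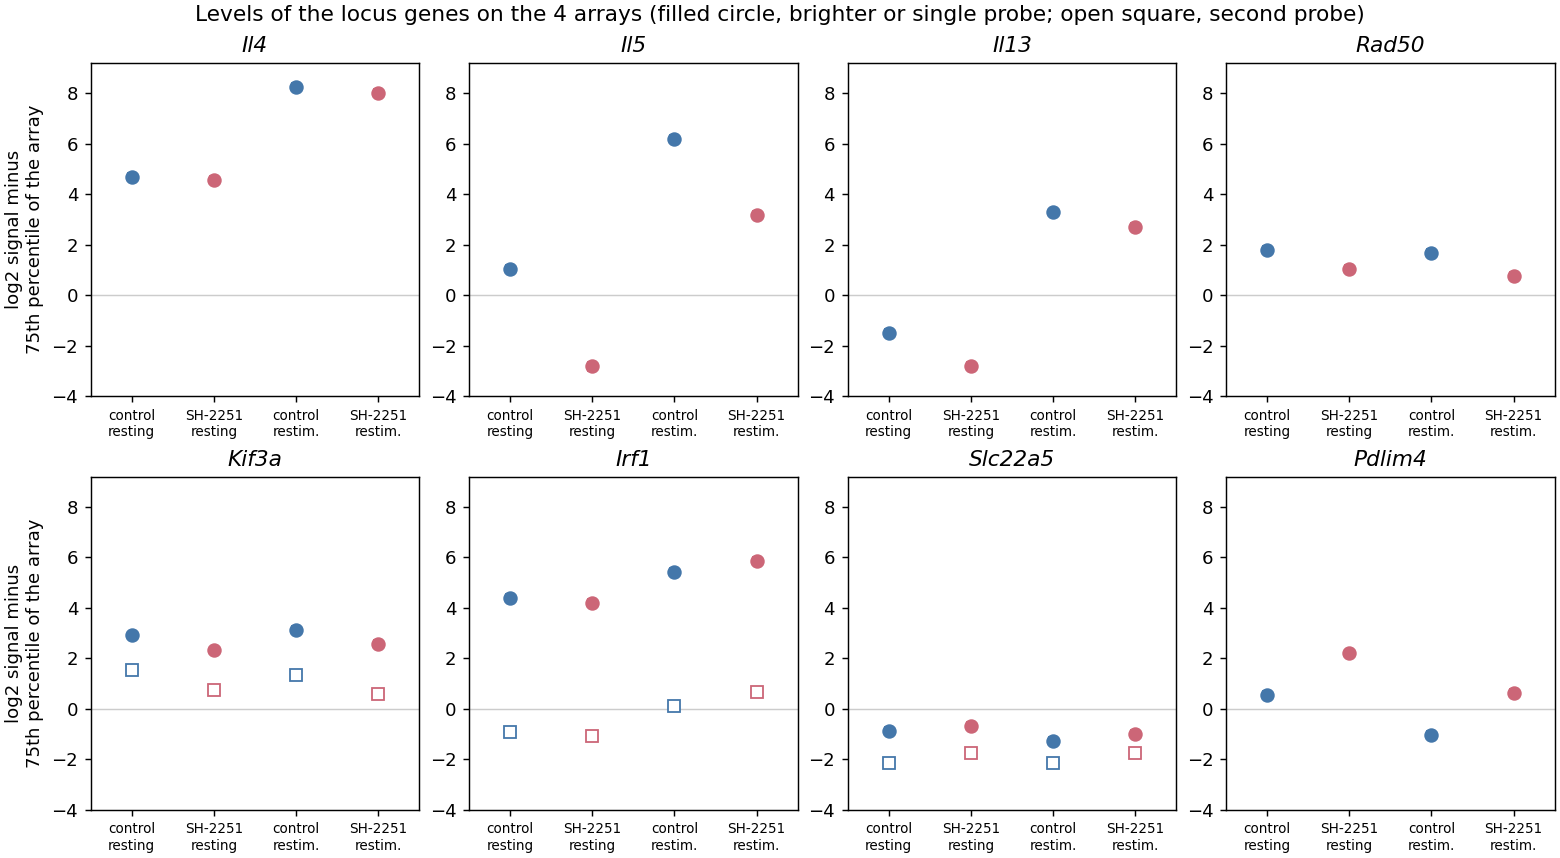
Level of each gene on the 4 arrays, as log2 signal minus the 75th percentile of the array, with control in blue and SH-2251 in red and the technical SD hidden behind the points. In resting cells Il5 was at 1.04 on the control and at -2.82 on the SH-2251 array, and in restimulated cells at 6.20 and 3.19, whereas the points of Il4 lay close together within each state.

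Il5 encodes the cytokine that eosinophils need to mature and survive. Its level (probe for NM_010558) was 1.04 in the resting control cells, -2.82 in the resting SH-2251-treated cells, 6.20 in the restimulated control cells and 3.19 in the restimulated SH-2251-treated cells. The corresponding intensities were 1154, 87.1, 36765 and 5330 units. Il5 was thus lower with SH-2251 in both states, and each step in the order of the 4 levels was more than 10 times its technical SD. The difference was -3.86 (technical SD 0.221) in resting cells, where 6.89% of the control signal was left, and -3.01 (technical SD 0.204) in restimulated cells, where 12.4% was left. Under a model-based background correction (normexp) the resting difference was smaller, at -2.33, or at -3.00 without spots of uneven local background. It starts from the median signal of each spot and adds an offset of 50, so it changes more than the background. Counted from the lowest, the resting difference ranked 7 among 11874 genes measured on both arrays and the restimulated one 10 among 11812. In RNA from a mixed culture, fewer Il5-expressing cells and less Il5 RNA per cell cannot be told apart.

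Il4 encodes the cytokine that drives Th2 differentiation and the switch of B cells to IgE. Its level (NM_021283) was 4.69 in resting control, 4.59 in resting SH-2251-treated, 8.25 in restimulated control and 8.02 in restimulated SH-2251-treated cells. These are means over 10 spots on each array, whose SD lay between 0.033 and 0.054. The difference with SH-2251 was -0.10 (technical SD 0.204) in resting cells and -0.23 (technical SD 0.204) in restimulated cells, so that 93.0% and 85.0% of the control signal was left. The resting difference was within the technical SD, and other ways of processing put it between -0.40 and 0.02, so its direction was not settled. In restimulated cells all 10 SH-2251 spots lay below all 10 control spots, but spots of 1 array share the same labelled RNA and are not replicates.

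**Figure D2:**
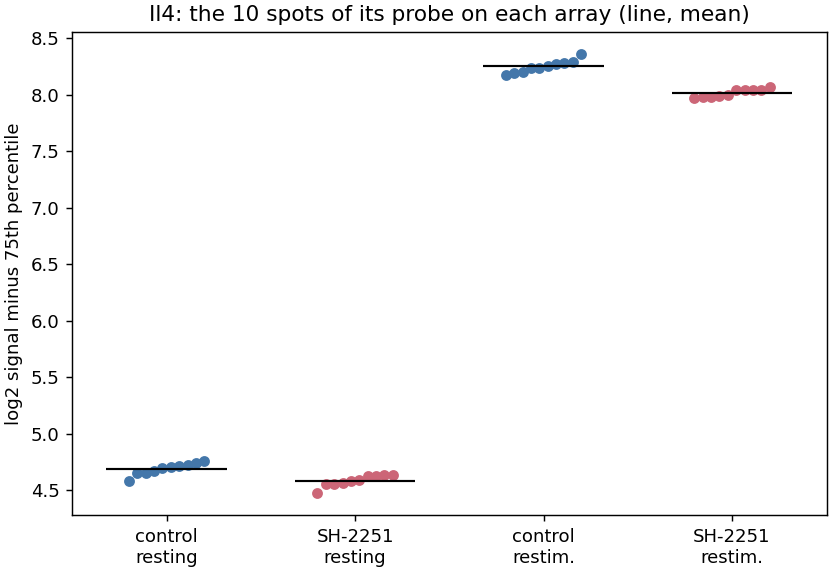
The 10 spots of the Il4 probe on each array in order of their value, as log2 signal minus the 75th percentile, with the mean as a line. The spots of the restimulated control array (mean 8.25) lie above those of the restimulated SH-2251 array (mean 8.02), and both resting arrays lie more than 3 units lower.

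Il13 encodes the cytokine that drives mucus production and airway hyperreactivity. Its level (NM_008355) was -1.49, -2.81, 3.28 and 2.72 in resting control, resting SH-2251-treated, restimulated control and restimulated SH-2251-treated cells. The intensities were 200 and 87.6 units at rest and 4859 and 3828 units after restimulation, so that the resting values rest on dim spots. Il13 was lower with SH-2251 by a difference of -1.32 (technical SD 0.222) in resting cells, which is 2.50-fold, and by -0.57 (technical SD 0.204) in restimulated cells, which is 1.48-fold. The resting value was -0.26 under normexp and -0.90 when the uneven spots were left out of it, neither of which reaches 2-fold.

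Rad50, a subunit of the complex that senses DNA breaks, lies between Il13 and Il5. Its level (NM_009012) was 1.80, 1.03, 1.69 and 0.77 in the same order. Both control arrays lay above both SH-2251 arrays, with differences of -0.77 (technical SD 0.204) at rest and -0.93 (technical SD 0.204) after restimulation, or 1.70-fold and 1.90-fold lower. Neither reached 2-fold. In the ranking from the lowest they stood at 443 of 11874 and 289 of 11812 genes.

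Kif3a encodes a motor subunit of kinesin-2, which carries cargo along microtubules into cilia, and lies on the far side of Il4. Its brighter probe (NM_008443) gave 2.91, 2.31, 3.13 and 2.58, and its second probe 1.54, 0.73, 1.34 and 0.57. By both probes Kif3a was lower with SH-2251, with differences of -0.59 and -0.81 at rest and of -0.55 and -0.76 after restimulation (technical SD 0.204 each). It was below 2-fold by either probe.

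Beyond Il5, the genes were not lower with SH-2251 as a group. The brighter probe of Irf1 (NM_008390) gave 4.41, 4.19, 5.44 and 5.87, and the second probe gave -0.93, -1.08, 0.11 and 0.65. The differences were -0.22 and -0.14 at rest, and 0.43 and 0.54 after restimulation, all below 2-fold. Slc22a5 encodes the carnitine carrier of the cell membrane. Its brighter probe (NM_011396) gave -0.87, -0.67, -1.26 and -0.98, and its second probe gave -2.16, -1.74, -2.15 and -1.77. The differences of 0.20 and 0.28 by the brighter probe and 0.42 and 0.38 by the second were of the size of their technical SD (0.207 to 0.221) or somewhat above it.

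Pdlim4 encodes a protein with PDZ and LIM domains that binds the actin skeleton. Its level (NM_019417) was 0.56, 2.20, -1.04 and 0.64 in resting control, resting SH-2251-treated, restimulated control and restimulated SH-2251-treated cells. It was the 1 gene of the 8 whose signal was past 2-fold on the higher side, by 1.64 (technical SD 0.204) or 3.12-fold at rest, and by 1.68 (technical SD 0.206) or 3.21-fold after restimulation. Among the genes measured on both arrays it ranked 61 and 63 from the highest. The level of restimulated SH-2251-treated cells and that of resting control cells differed by 0.081, within the technical SD of 0.204.

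**Figure D3:**
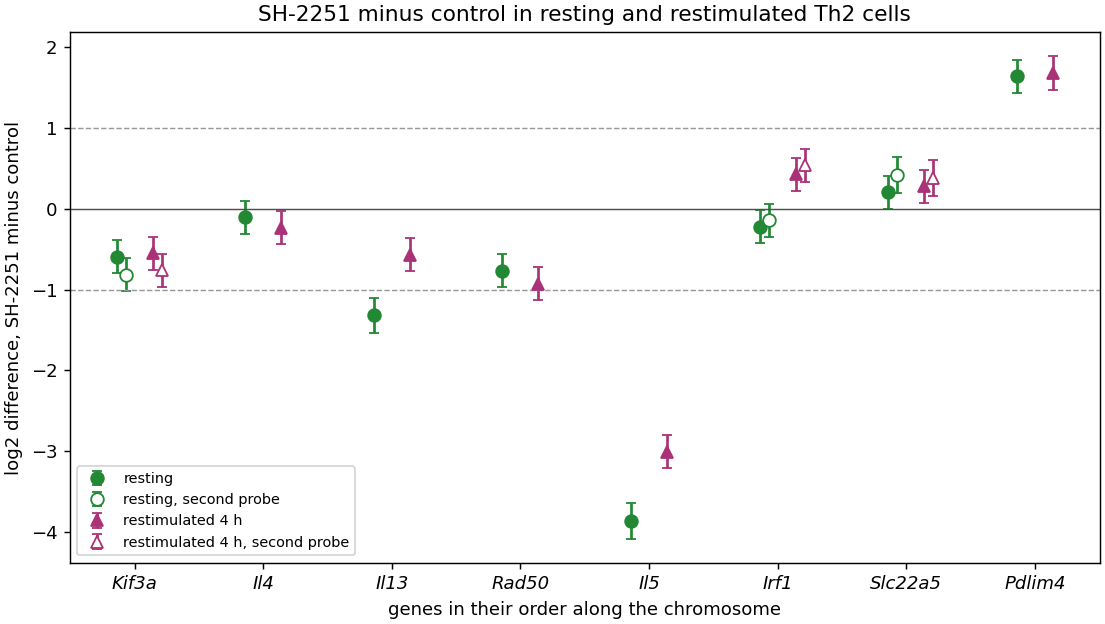
Log2 difference between SH-2251 and control for each gene, in the order of the genes along the chromosome, for resting cells (circles) and restimulated cells (triangles), with open symbols for a second probe, bars for the technical SD and dashed lines at 2-fold. Il5 lies at -3.86 and -3.01 and Pdlim4 at 1.64 and 1.68, and the restimulated points of the other 6 genes lie between the dashed lines.

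With SH-2251 in resting cells, 2 of the 8 genes (Il5 and Il13) were at least 2-fold lower and 1 (Pdlim4) higher by as much, where 2.90% of 12684 genes were lower and 2.26% higher. In restimulated cells 1 of the 8 (Il5) was lower and 1 (Pdlim4) higher, where 2.78% of 12623 genes were lower and 2.65% higher. The median difference of the 8 was -0.41 at rest and -0.39 after restimulation, against -0.06 over all genes in either state. With so few genes these counts and medians are a description. In chromosomal order, Kif3a, Il13, Rad50 and Il5 lay on the lower side in both states and Slc22a5 and Pdlim4 on the higher side. Il4, between Kif3a and Il13, was at -0.10 at rest and -0.23 after restimulation, also on the lower side. Irf1 was at -0.22 at rest and 0.43 after restimulation.

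Markers of some other cells differed between the same arrays. The summed level of 6 B cell markers, relative to the 75th percentile, was 4.31 in resting control, 4.94 in resting SH-2251-treated, 3.54 in restimulated control and 5.50 in restimulated SH-2251-treated cells, with Pax5 and Blk well above background on none. Of these markers, Ms4a1 was higher with SH-2251 by 0.74 at rest and by 1.21 after restimulation. The CD8 T cell marker Cd8a, which was dim, was higher with SH-2251 by 1.45 at rest and by 0.97 after restimulation. Of 6 measured markers of mast cells, basophils and eosinophils, which make Il4, Il5 or Il13 too, Cpa3 was well above background on all arrays, Fcer1a on 1, and Prg2, Epx, Mcpt8 and Ms4a2 on none, and their summed level lay between 0.235 and 0.273. Of 5 myeloid markers, Csf1r, Cd14 and Adgre1 were well above background on all arrays, and Lyz2 and Itgam on none. The summed level of the 5 lay between 2.44 and 2.99, with Adgre1 the brightest. Of 4 NK cell markers, Klrd1 was well above background on all arrays, Eomes on the SH-2251 arrays only, and Ncr1 and Klrb1c on none. Eomes was at least 1.53-fold higher with SH-2251 at rest and at least 1.30-fold after restimulation. The summed level of the NK cell markers lay between 0.200 and 0.309. The part of other cells in the differences was not tested.

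All 3 cytokine genes were higher after restimulation in both cultures. In control cells Il5 was higher by 5.16 (35.8-fold), Il13 by 4.77 (27.4-fold) and Il4 by 3.56 (11.8-fold), each with a technical SD of 0.204 to 0.206. With SH-2251, Il5 was higher by 6.01 (64.5-fold), Il13 by 5.53 (46.1-fold) and Il4 by 3.43 (10.8-fold), with technical SDs of 0.204 to 0.221. Il5 thus responded to restimulation with SH-2251 too, from a resting level that was 6.89% of the control: restimulated SH-2251-treated cells were 2.15 above resting control cells, or 4.45-fold. Among genes measured on both arrays, Il5 ranked 12 from the highest without and 8 with SH-2251, Il13 ranked 14 and 10, and Il4 29 and 44. The spots of Il5 and Il13 in resting SH-2251-treated cells were dim, and their order against control depended on the processing. Under normexp Il5 rose by 4.47 with SH-2251 and by 5.12 in control cells, and Il13 by 4.03 and 4.36. Without spots of uneven local background, Il5 rose by 5.13 and 5.12, and Il13 by 4.66 and 4.36.

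Of the neighbours, Irf1 was higher after restimulation by 1.03 (2.04-fold) without and by 1.68 (3.21-fold) with SH-2251, and by 1.05 and 1.73 on its second probe. Pdlim4 went the other way, with differences of -1.60 without and -1.56 with SH-2251, or 3.03-fold and 2.95-fold lower. Rad50 (-0.11 and -0.27), Kif3a (0.23 and 0.27) and Slc22a5 (-0.38 and -0.31) stayed below 2-fold. For Kif3a the second probe gave -0.20 and -0.15, opposite in direction to the brighter one. In each culture 4 of the 8 genes were at least 2-fold higher and 1 lower, but under quantile normalization Irf1 was at 0.89 in control cells and 3 were higher there. In control cells 7.24% of 12758 genes were higher and 7.34% lower, and in SH-2251-treated cells 7.09% of 12613 genes were higher and 6.98% lower. The median change of the 8 was 0.63 and 0.98, against -0.06 and -0.05 over all genes.

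**Figure D4:**
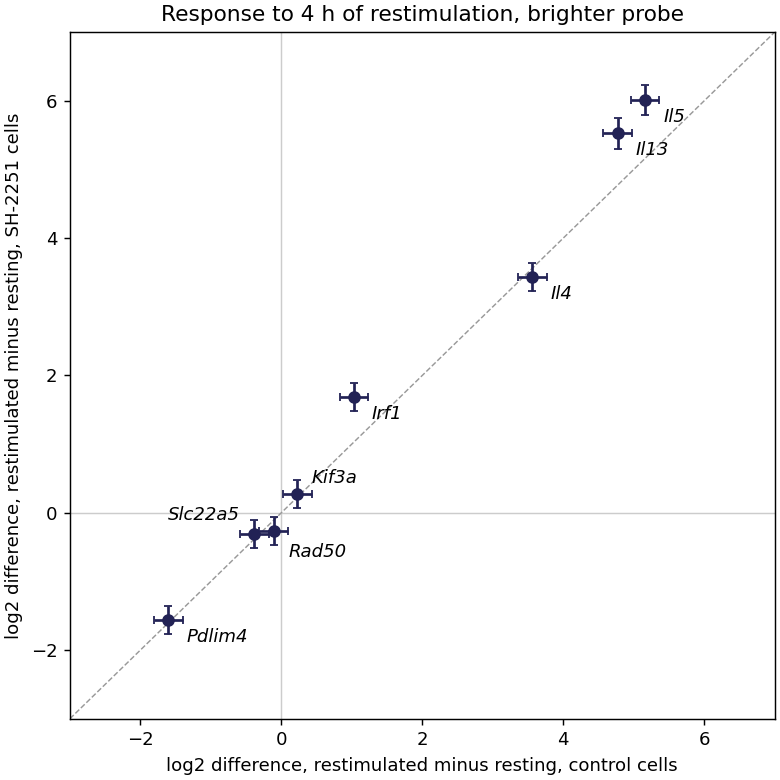
Log2 change with 4 h of restimulation in control cells (horizontal axis) and in SH-2251-treated cells (vertical axis) for the 8 genes by their brighter probe, with bars for the technical SD and a dashed line where both changes are equal. Il5 (5.16 and 6.01), Il13 (4.77 and 5.53) and Irf1 (1.03 and 1.68) lie above the line, and the other 5 genes differ from it by between -0.16 and 0.075. Under normexp, not drawn, Il5 (5.12 and 4.47) and Il13 (4.36 and 4.03) lay below it.

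The difference between SH-2251 and control was not the same in both states for Il5, Il13 and Irf1, each by more than its technical SD. Restimulated minus resting, it moved by 0.85 for Il5 (technical SD 0.301), 0.75 for Il13 (technical SD 0.301) and 0.65 for Irf1 (technical SD 0.289), which had 0.68 by its second probe. Of 11518 genes measured on all arrays, 1.95% moved by more than Il5 in either direction, 2.67% by more than Il13 and 4.12% by more than Irf1. Under normexp the values for Il5 and Il13 were -0.66 and -0.34, and without spots of uneven background they were 0.0086 and 0.30. That for Irf1 lay between 0.63 and 0.90 under every alternative. The other 5 genes moved by between -0.16 and 0.075.

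The genes were then set in a window of 30 protein-coding genes, from 10 genes before Kif3a to 10 after Pdlim4, all of which had a named probe. Of the 22 other genes, 16 could be compared at rest, where 1 (Zcchc10, a zinc finger gene, at -1.15) was at least 2-fold lower with SH-2251 and 1 (Meikin, a gene of meiosis) was at least 5.81-fold higher. The latter was well above background on 1 array only. In restimulated cells none of 17 reached 2-fold in either direction, their range being -0.54 (Zcchc10) to 0.46 (Slc22a21). The shares over all genes were 2.90% lower and 2.26% higher at rest, and 2.78% and 2.65% after restimulation. Counts of 0 or 1 in so few genes are near those shares and are no result about the window. Slc22a21, next to Slc22a5 and of the same carrier family, was higher by 0.53 at rest and 0.46 after restimulation, and whether one of their probes also reads RNA of the other was not tested. The median of the other genes was 0.01 at rest and 0.05 after restimulation. Leap2, Sowaha, Slc22a4 and Lyrm7 were well above background on none of the arrays.

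Further along the same window lie Csf2 and Il3, which encode the growth factors GM-CSF and IL-3 and are likewise T cell cytokines. The level of Csf2 was -1.79 and -1.58 in resting and 3.94 and 3.96 in restimulated control and SH-2251-treated cells, so that it was 53.2-fold and 46.5-fold higher after restimulation. Il3 was not well above background at rest and had levels of 4.61 and 4.66 after restimulation, at least 672-fold and at least 636-fold higher. Between the restimulated arrays the SH-2251 difference was 0.01 for Csf2 and 0.05 for Il3, both within the technical SD, where that of Il5 was -3.01. P4ha2, a collagen-modifying enzyme between Pdlim4 and Csf2, was 2.55-fold lower after restimulation without and 2.03-fold lower with SH-2251.

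**Figure D5:**
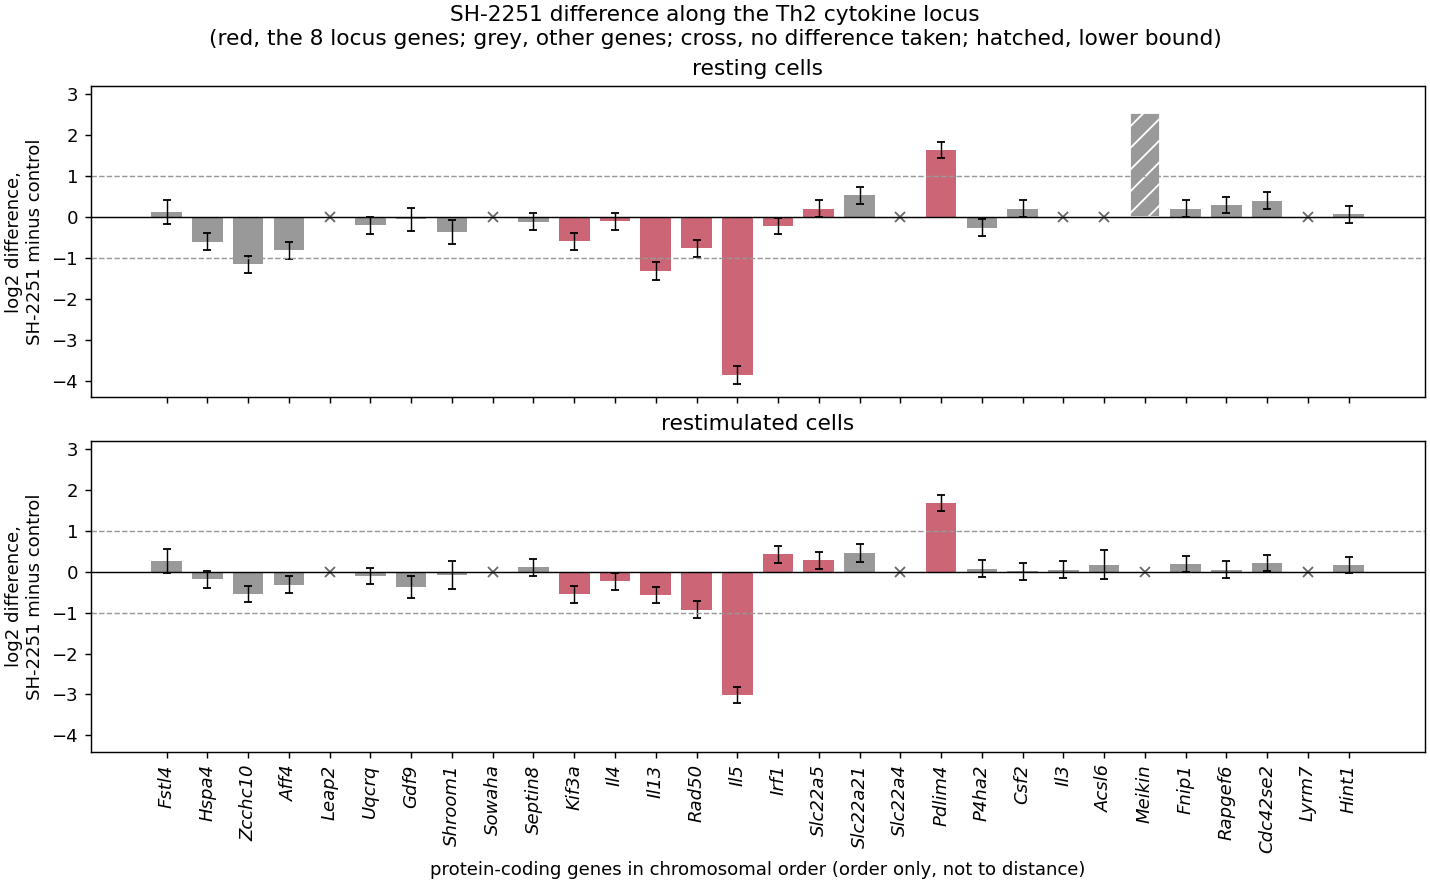
Log2 difference between SH-2251 and control for 30 genes in chromosomal order, in resting (top) and restimulated cells (bottom), with bars for the technical SD and dashed lines at 2-fold. A cross marks a gene with no difference taken because it was not well above background on either array, and a hatched bar a lower bound. Il5 at -3.86 and -3.01 stands below all other genes of the window, and Csf2, on the other side of Pdlim4, differed by 0.20 and 0.01.

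Of 29 genes that act on the locus as activators or carry the signal to it, 28 could be compared at rest and 29 after restimulation. Gata3, which opens the locus, differed by -0.17 and -0.03 with SH-2251, and Stat6, which carries the IL-4 signal, by -0.20 and 0.14. At least 2-fold lower at rest, against 2.90% of all genes, were 4 of the 28, namely Gfi1, a repressor of transcription needed for Th2 growth, at -5.39, Maf, an activator of Il4, at -1.17, and the AP-1 genes Fosl1 at -1.54 and Fos at -1.23. After restimulation, against 2.78% of all genes, these were 3 of the 29, namely Gfi1 at -2.49, Maf at -1.22 and Bhlhe41, which was well above background on the control array only, at least 2.37-fold lower. None was at least 2-fold higher in either state. The median of the list was -0.22 at rest and -0.05 after restimulation. Junb and Batf, the brightest of these genes and both of the AP-1 group, differed by -0.55 and -0.74 at rest and by -0.09 and 0.00 after restimulation. With restimulation 7 of 29 were at least 2-fold higher in control cells, against 7.24% of all genes, and 8 of 28 with SH-2251, against 7.09%, with Fosl1 highest at 3.05 and 4.34, and Nfatc1 was lower at -1.19 and -1.09. Bhlhe41, not well above background in resting control cells, could count among those of the control cells only as higher.

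Of 14 repressors of the locus, only Zbtb32, which restrains cytokine genes, passed 2-fold with SH-2251, at -2.27 at rest and -1.79 after restimulation. Over all genes 2.90% were lower and 2.26% higher at rest, and 2.78% and 2.65% after restimulation. In a list of this size 1 gene is no result about the repressors. Tbx21, the factor of Th1 cells, differed by -0.84 and -0.51. Of 9 receptor genes for cytokines of this locus and its neighbours, 7 could be compared at rest and 8 after restimulation. Csf2rb, the chain shared by the receptors of IL-3, IL-5 and GM-CSF, was lower at -1.27 and -1.51, and its relative Csf2rb2 was at least 2.75-fold lower at rest. These genes share much of their sequence, and which of them a probe reads was not tested. Il4ra, the receptor of IL-4, differed by -0.11 and 0.03.

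Lists of partners and relatives of the other members were read in the same way. Of 11 genes of the Rad50 complex and the response to DNA damage, 10 compared genes of kinesin-2 and its cargo carriers, 9 compared genes of the carnitine pathway and 5 compared relatives of Pdlim4, none reached 2-fold in either state. Over all genes 2.90% were lower and 2.26% higher at rest, and 2.78% and 2.65% after restimulation, so that a count of 0 in lists of this size is near the share of all genes and is no result about them. Their medians at rest were 0.06, 0.04, -0.20 and -0.34, and after restimulation -0.19, 0.19, -0.09 and 0.07. Of 8 other members of the IRF family, Irf8 was lower at rest, at -1.46. Of 14 compared targets of IRF1, Isg15 was lower at rest, at -1.98, and Cxcl10 after restimulation, at -1.55, with list medians of 0.04 and 0.09.

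Likeness of pattern was measured as the distance between the 4 levels of 2 genes after the mean of each gene was taken off, over 4 arrays and 11518 genes, so that a smaller distance is a closer match. For Il5 the nearest were Stfa2 (2.14) and Stfa2l1 (2.37), related stefin genes whose probes may read the same RNA, and Il13 (2.53). The distance grows with the size of a gene's changes, and the nearest match of Il5 was farther than those of the other members tried. For Il4 the nearest were Bcl2a1b (0.249), of a family of near-identical copies, Nr4a2 (0.265) and Sema7a (0.265). For Il13 they were Egr2 (0.745), Pth (0.760) and Ifng (0.989), and for Irf1 Ubtd2 (0.144), Tmem120b (0.154) and Irf5 (0.170). With 4 arrays a near match is a description of these samples.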

How the data were processed

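Agilent 44K whole mouse genome arrays with 1 dye (Cy3) were used, 1 for each of 4 conditions, all on 1 slide. For each array the authors deposited the output of Feature Extraction 10.7.3.1, whose intensity values are corrected for background by this software. They also deposited a table of log2 values normalized with the Subio Platform: 99.6% to 99.7% of its probes lay within 0.01 of the log2 intensity plus 1 constant per array, and its 75th percentiles are 0.00, so scale and centring are known. Samples were grouped by their labels.

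Intensities were put on the log2 scale, and the 75th percentile of the array was taken off. Control spots and the 77 to 106 outlier spots of an array were dropped, and repeat spots of a probe averaged. Of 41174 probes, 27198 were named through their RefSeq accession and a table of RefSeq genes (GRCm38.p6), which was used for names and the order of genes only, since the arrays were designed on mm9. A gene is represented by its brightest probe. A gene was compared where at least 1 array of the pair measured it well above background. A dim side was replaced by the dimmest signal that the array still measured well above background, unless its own was higher, which gives a bound. The technical SD comes from the error that the software gives for each spot (about 10.1% of the signal). No test was made, as each condition has 1 array; a fit that takes resting and restimulated cells as repeats of each other was not run. Protein and probe sequences were not used here.

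The 8 genes, the gene lists and the markers were chosen with earlier results of these data known. Named were all members, list genes and genes of the window past 2-fold, some of the brightest genes of a list, and the 3 genes nearest in pattern for Il4, Il5, Il13 and Irf1. Not every gene that meets the rule is named. Stat6, Gata3 and Slc22a21 were named outside this rule, with their values known. No probe could be named for Lif, Mdc1, Cd8b1, Kit and Siglec5. Alternatives were median centring, quantile normalization, normexp (offset 50, on median spot signals, as the columns used hold no mean ones), the authors' table, the filter, the probe, outlier spots and the fold threshold. The normexp correction was made with limma 3.58.1 in R 4.3.3, and all else in Python 3.11.15 (numpy 2.4.6, pandas 2.3.3, matplotlib 3.10.9). The steps were tested on simulated data.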

Additional observations from a re-analysis of the deposited data

Results flagged for a closer look

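The differences of Irf1 with SH-2251 had opposite signs in the 2 states. With SH-2251 it was -0.22 in resting cells and 0.43 in restimulated cells by its brighter probe, with a technical SD of 0.204, and -0.14 and 0.54 by its second probe. The resting value of the second probe was within its technical SD of 0.207, and that of the brighter probe was -0.16 under median centring and -0.11 under quantile normalization, both within the technical SD, so the direction at rest was not settled. Under the alternatives the resting value lay between -0.48 and -0.11 and the restimulated value between 0.43 and 0.54. The difference between the states was not tested, since each condition has 1 array.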

How the results depend on the processing

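No paired analysis was possible because each condition has 1 array, and a fit with the state of the cells as a block was not run. For the 8 genes, no difference past 2-fold changed direction under the alternatives run; the single genes of the other lists were not followed under them. In resting cells normexp put Il5 at -2.33, or at -3.00 when spots of uneven background were left out, and 1 of the 8 genes was at least 2-fold lower with SH-2251 under either, as Il13 no longer passed. In restimulated cells Il5 stayed between -3.01 and -2.92. At 1.5-fold, 4 genes were lower at rest and 2 after restimulation. At 3-fold, 1 was lower with SH-2251 at rest, and 0 were lower after restimulation in the culture with SH-2251, where Pdlim4 was at -1.56. Under quantile normalization 3 were higher after restimulation in control cells in place of 4, with Irf1 at 0.89. The other counts of the 8 genes were within 1.5 times the reported ones. Over all genes, normexp gave 162 lower and 702 higher at rest in place of 368 and 287, 158 and 149 after restimulation in place of 351 and 334, 444 and 628 for restimulation without SH-2251 in place of 937 and 924, and 1520 and 731 for restimulation with it in place of 881 and 894. Without spots of uneven background it gave 185 and 123, 158 and 149, 444 and 627, and 442 and 657. With neither filter nor bound there were 798 lower and 623 higher at rest, 950 and 678 after restimulation, 1395 and 1361 for restimulation without, and 1421 and 1308 with SH-2251. At 1.5-fold there were 945 and 776, 902 and 871, 2366 and 1924, and 2385 and 1871. At 3-fold there were 142 and 103, 144 and 102, 194 and 383, and 145 and 396. The cause was not tested. Dim spots limit Il13 and Il5 in resting SH-2251-treated cells, at 87.6 and 87.1 intensity units.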

Other observations

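Of 18 other T cell cytokine genes on the array, 12 could be compared in resting and 18 in restimulated cells. After restimulation 15 of 17 were at least 2-fold higher in control cells, where 7.24% of all genes were, and 17 of 18 with SH-2251, where 7.09% were. Some of those counted were well above background on the restimulated array only, so they could count only as higher. In control cells these were Il2, Il3, Il17a and Il17f. With SH-2251 they were Il2, Il3, Il9, Il17a, Il17f, Il21, Il22 and Areg. The counts are thus a description and no result about the list. With SH-2251, Il10, which restrains inflammation, was 3.27-fold lower at rest and 1.98-fold lower after restimulation. Il21, a helper cytokine for B cells, was at least 3.11-fold lower at rest and 4.74-fold lower after restimulation. Areg, of the epidermal growth factor family, was at least 2.02-fold lower at rest. Il31, a Th2 cytokine linked with itch, was 4.39-fold higher at rest and 1.98-fold higher after restimulation. In restimulated cells Il2 was 2.89-fold lower, Ifng 3.12-fold lower, Il6 higher by 1.63 and Lta by 1.05 on the log2 scale, and Il9 at least 3.96-fold higher with only the SH-2251 array well above background. The list median was -0.22 at rest and 0.03 after restimulation.

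The summed level of 3 Th1 markers (Tbx21, Ifng and Cxcr3), relative to the 75th percentile, was 4.99 in resting control, 2.94 in resting SH-2251-treated, 52.3 in restimulated control and 20.7 in restimulated SH-2251-treated cells. Of 4 Th17 markers none was well above background at rest. After restimulation 3 were in control cells and 2 in SH-2251-treated cells, with summed levels of 0.697 and 0.867. Among the 6 Th2 markers, Il1rl1, the receptor of IL-33, was lower with SH-2251 by a difference of -4.61 at rest and -3.78 after restimulation, and Ccr8, a chemokine receptor, differed by 0.85 and 0.54.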
